A study of Mus musculus with 24 samples.

Results

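Genes of the inflamed vessel wall, 7 of the 24062 gene symbols in the count table, were followed through 24 RNA sequencing libraries of mouse hippocampus. They were Lcn2, Lrg1, Vwf, Selp, Sele, Icam1 and Vcam1, taken by symbol, and 6 of the 7 had enough reads to be tested (Sele did not). The genes were selected on their measured levels in these libraries, above all the difference between stressed and control wild-type mice, so that difference is given as a description and nothing is supported with it.

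The libraries crossed genotype with social stress in C57BL/6 mice. WT control (n = 7) held unstressed wild-type mice and WT stress (n = 6) wild-type mice after social defeat by paired fighting, a stress made of aggressive encounters between mice. KO control (n = 6) and KO stress (n = 5) held mice labelled IL-1R1 knockout, which the series title describes as lacking the receptor of interleukin-1 beta in neurons. By that title other cells, the endothelium among them, would keep the gene, which no value here checks. The sources used here do not name the driver of the deletion, the length of the stress or the age of the mice. They also do not state that the libraries of a group are different mice, so p-values measure how these samples spread, and that spread may be technical.

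When cytokines such as interleukin-1 beta or tumour necrosis factor reach their receptors on endothelial cells, the transcription factor NF-kB enters the nucleus and turns on genes that let blood leukocytes stick to the vessel. The selectins (Selp and Sele) slow the passing leukocytes, and the immunoglobulin-type adhesion proteins (Icam1 and Vcam1) then hold them through integrins. Vwf and the Selp protein share the storage granules of endothelial cells (Weibel-Palade bodies), while Lcn2, an iron-siderophore binding protein, and Lrg1, a modulator of TGF-beta signalling in vessels, are secreted acute-phase proteins. In the resting brain most of these genes are kept low. Several are not made by endothelium alone: Lcn2 and Lrg1 are also neutrophil granule genes, Lcn2 is made by reactive astrocytes, and Vwf and Selp are also found in platelets.

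The promoters are shown because NF-kB, STAT3 and C/EBP factors are known regulators of genes of this kind. RefSeq promoters (GRCm38.p6, the same coordinates as mm10; 250 bases before to 50 after the start) were found for 5 of the 7 genes, and not for Vwf and Vcam1. The 4 shown are the 250 bases before the start of both secreted genes and of the adhesion genes Sele and Icam1, at chr2:32387740-32387989 (minus strand), chr17:56121947-56122196 (minus strand), chr1:164047984-164048233 (plus strand) and chr9:21015690-21015939 (plus strand). Capitals mark a match, on either strand, to the NF-kB core GGNNNTTCC, the STAT core TTCNNNGAA or the C/EBP core TTGCNNAA.
Lcn2: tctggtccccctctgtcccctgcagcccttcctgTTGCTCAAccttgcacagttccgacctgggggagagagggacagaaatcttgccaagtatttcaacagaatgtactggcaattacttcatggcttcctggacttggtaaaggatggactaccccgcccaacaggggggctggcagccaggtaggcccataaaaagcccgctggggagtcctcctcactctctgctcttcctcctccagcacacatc
Lrg1: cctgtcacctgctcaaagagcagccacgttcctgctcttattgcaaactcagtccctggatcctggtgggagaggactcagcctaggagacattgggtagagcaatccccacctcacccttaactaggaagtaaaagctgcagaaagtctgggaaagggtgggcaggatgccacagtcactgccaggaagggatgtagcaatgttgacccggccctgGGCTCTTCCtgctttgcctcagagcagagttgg
Sele: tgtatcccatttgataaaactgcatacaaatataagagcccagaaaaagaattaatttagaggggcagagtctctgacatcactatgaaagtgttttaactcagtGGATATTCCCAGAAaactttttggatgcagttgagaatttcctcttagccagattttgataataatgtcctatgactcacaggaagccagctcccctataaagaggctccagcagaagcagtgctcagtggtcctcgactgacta
Icam1: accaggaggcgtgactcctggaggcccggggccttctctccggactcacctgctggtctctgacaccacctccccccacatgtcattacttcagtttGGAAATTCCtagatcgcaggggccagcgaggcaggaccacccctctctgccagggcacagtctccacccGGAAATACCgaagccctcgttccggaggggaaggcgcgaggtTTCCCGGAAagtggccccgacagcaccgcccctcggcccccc

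Icam1 held a match to the NF-kB core 153 bases before its start (on both strands) and another at 84, and a STAT match at 42. In Sele an NF-kB match that starts 145 bases before the start overlapped a STAT match at 140, and these form the single run of capitals in its line. Lrg1 held an NF-kB match at 33, and Selp, not shown, one at 14 on the minus strand. Lcn2 held a C/EBP match at 216 and neither of the other motifs in this window. The window lies inside the GENCODE span of Lcn2 (chr2:32384633-32388252, minus strand), which starts farther upstream than the RefSeq start. Bases before the GENCODE start of Lcn2 were not searched. The Lrg1 window overlaps the GENCODE span of Lrg1 in part (chr17:56119678-56122001, minus strand), and its match at 33 lies inside that span. Of all 32851 RefSeq promoters of this length, 18.5% held the NF-kB core, 8.3% the STAT core and 10.8% the C/EBP core. These matches describe letters, not bound sites.

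The libraries held 25711872 to 35148198 counts each, and 3 reads of a gene stood at 0.0853 to 0.117 CPM (counts per 1000000 counts of a library; library sizes were scaled by TMM, a correction for composition). By their level of Rn45s, a ribosomal precursor transcript, the libraries fell into 2 sets that the labels do not name: 11 libraries (set 1) had 24240 to 50450 CPM over all reads and 13 (set 2) had 4107 to 8786 CPM. Set 1 took 3 of the WT controls, 2 of WT stress, 4 of the KO controls and 2 of KO stress, in each group those with the lowest replicate numbers. Transcripts of the neighbouring thalamus also varied: the thalamic transcription factor gene Tcf7l2 stood at 86.9 to 109 CPM in 3 libraries (replicates 3 and 5 of KO stress and replicate 5 of WT stress), against 26.3 to 60.7 CPM in the 11 libraries of set 1 and 5.66 to 16.7 CPM in the other 10 of set 2. Endothelial identity was clear in every group, with the summed level of 23 endothelial markers at 577 to 855 CPM per library and none of them at 0. Il1r1, the gene targeted by the knockout, was counted in both genotypes (1.99 to 7.32 CPM in WT and 2.10 to 7.93 CPM in KO libraries), so its level does not check the labels.

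The secreted acute-phase genes showed the widest contrast. Lcn2 (chr2:32384633-32388252, minus strand, mm10) stood at 0 to 0.754 CPM in the WT control libraries (median 0.286; 57 reads over the group). In WT stress it stood at 5.40, 10.2, 4.95, 5.22, 12.7 and 19.9 CPM in replicates 1 to 6, and no WT stress library overlapped a WT control. Against the control mean of 0.270 ± 0.243 CPM (SD, n = 7), single WT stress libraries were 18.3 to 73.7 times as high, and the fitted log2 fold change was 5.15 ± 0.75 (SE). These folds rest on a control level near the 3-read floor and are imprecise.

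In KO mice Lcn2 was raised unevenly. It had 0 to 0.945 CPM in KO controls (median 0.308) and 1.39, 1.21, 1.28, 7.28 and 13.7 CPM in KO stress replicates 1 to 5. All 5 stress libraries lay above all 6 controls, but replicates 1 to 3 were only 2.95 to 3.37 times the control mean, while replicate 4 was 17.7 times and replicate 5 was 33.2 times as high.

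Lrg1 (chr17:56119678-56122001, minus strand) had 1.57 to 4.23 CPM in WT controls (median 2.96) and 9.30, 7.38, 13.03, 10.1, 10.7 and 13.7 CPM in WT stress replicates 1 to 6. Here too the WT groups did not overlap, with a log2 fold change of 1.91 ± 0.26 (SE) and every stress library 2.59 to 4.83 times the control mean. KO controls had 2.17 to 3.51 CPM (median 2.51), and KO stress replicates 1 to 5 had 4.12, 5.20, 2.65, 6.77 and 9.81 CPM. KO stress replicate 3 sat among the controls, and the other 4 lay above all of them.

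The genes of the endothelial storage granule differed greatly in abundance. Vwf, which encodes the multimeric protein that tethers platelets (chr6:125546774-125686679, plus strand), had 17.8 to 32.8 CPM in WT controls (median 21.7). WT stress replicates 1 to 6 had 32.0, 43.0, 74.3, 74.7, 65.6 and 55.9 CPM. Replicate 1 reached only the level of the highest control, WT control replicate 6, and the other 5 lay above all controls (log2 fold change 1.30 ± 0.24, SE). In KO mice the controls had 19.4 to 28.7 CPM (median 23.2) and stress replicates 1 to 5 had 25.8, 35.3, 40.3, 69.2 and 87.0 CPM, of which replicate 1 overlapped the controls.

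Selp, the gene of P-selectin (chr1:164115264-164150026, plus strand), was scarce. The 7 WT controls held 15 reads in all (0 to 0.241 CPM, 2 libraries at 0) and the 6 WT stress libraries 108 reads (0, 0.204, 0.290, 0.800, 1.56 and 0.499 CPM in replicates 1 to 6). The KO controls held 12 reads (0 to 0.203 CPM, 3 libraries at 0) and the KO stress libraries 32 reads (0.173, 0.0356, 0.0336, 0.439 and 0.428 CPM). Groups overlapped in both genotypes, and 4 of 6 WT and 2 of 5 KO stress libraries lay above their controls. Selp passed the filter on low counts only through 5 stress libraries, and Lcn2 only with the help of stress libraries (4 control libraries were over the minimum, where 5 were needed), so for these genes a difference with stress was built into being tested.

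Among the adhesion genes, Sele, the endothelial selectin E (chr1:164048234-164057677, plus strand), was nearly absent. It had 2 reads over the 7 WT controls, 32 over the 6 WT stress libraries (0, 2, 0, 4, 16 and 10 reads in replicates 1 to 6), 2 over the 6 KO controls and 8 over the 5 KO stress libraries (2 in replicate 4 and 6 in replicate 5). The ratio of stress to control was 18.2 in WT (95% exact Poisson interval 4.64 to 157) and 4.7 in KO mice (0.939 to 45.5). These intervals cover counting error only, and they are too narrow if both mates of a read pair were counted, since 70.9% to 75.8% of counts from 1 to 10 were even in each library (the lower bounds are 2.82 and 0.465 with 2 mates as 1).

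Icam1, the ligand of leukocyte beta-2 integrins (chr9:21015985-21028817, plus strand), had 1.60 to 3.88 CPM in WT controls (median 3.31). WT stress replicates 1 to 6 had 2.27, 3.84, 6.98, 5.18, 5.89 and 8.49 CPM, so that replicates 1 and 2 fell within the control range and the other 4 above it (log2 fold change 0.87 ± 0.25, SE). KO controls had 1.99 to 3.16 CPM (median 2.57), and KO stress replicates 1 to 5 had 3.01, 3.81, 3.09, 4.97 and 6.68 CPM, 3 of them above all controls.

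Vcam1, the ligand of integrin alpha-4 beta-1 (chr3:116109949-116129688, minus strand), stayed within a narrow band. It had 16.2 to 24.1 CPM over the WT controls, 16.3 to 27.3 CPM after stress, 18.6 to 25.96 CPM in KO controls and 18.3 to 28.6 CPM in KO stress. Group means lay between 20.9 ± 2.71 (KO control) and 23.4 ± 3.94 CPM (KO stress; SD), and the log2 fold change with stress was 0.09 ± 0.12 in WT and 0.16 ± 0.13 in KO mice (SE). Levels per kilobase used all annotated exons of a gene merged (16064 bases for Vwf, 8870 for Vcam1, 2623 for Lcn2 and 1408 for Lrg1). This length can exceed that of the transcripts present, so the order of genes on this scale depends on the annotation. On it, Vcam1 had the highest control level (2.36 CPM per kb in each genotype), followed by Lrg1 (2.02 in WT and 1.87 in KO) and Vwf (1.45 and 1.48). On the same scale Lcn2 went from 0.103 in WT control to 3.71 in WT stress, while Lrg1 reached 7.61.

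**Figure D1:**
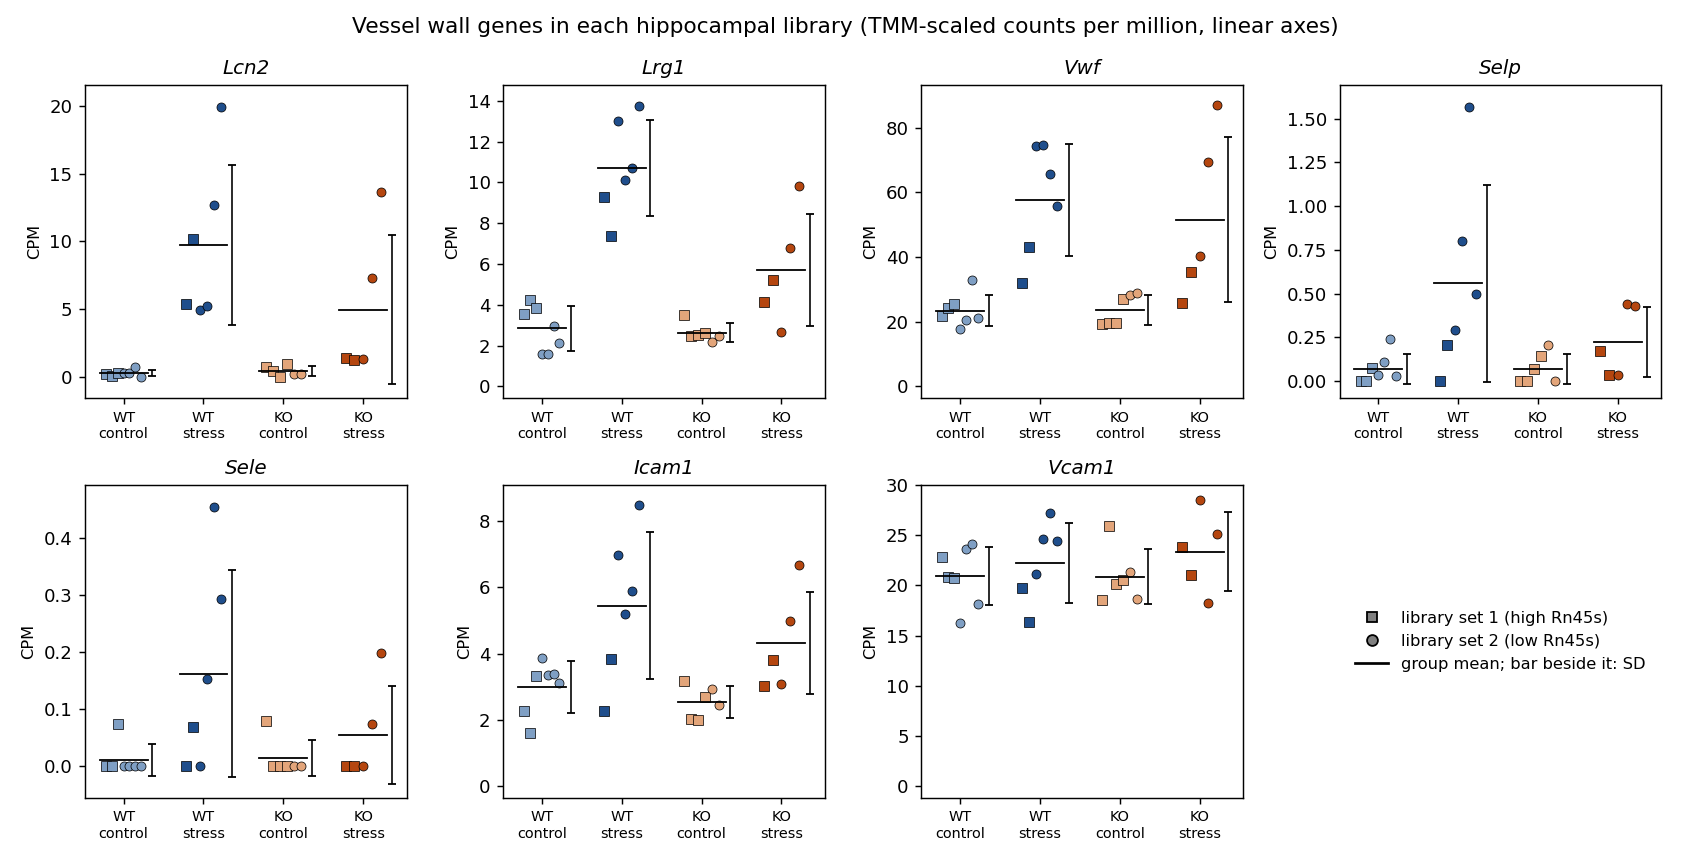
Each point is 1 library, with TMM-scaled CPM on linear axes, by group; squares are set 1 and circles set 2, the line is the group mean and the bar beside it the SD. Lcn2 and Lrg1 separate WT stress from WT control, Vcam1 lies between 16.2 and 28.6 CPM in all groups, and in KO stress 2 libraries of set 2 stand above the others for 6 of the 7 genes.

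Some stress libraries kept their place from gene to gene. KO stress replicates 4 and 5 were the 2 highest of their group for 6 of the 7 genes, all but Vcam1, for which replicate 3 was highest and replicate 4 lowest. WT stress replicates 1 and 2, the 2 libraries of set 1, were the 2 lowest of their group for 5 of the 7 genes (Lrg1, Vwf, Selp, Icam1 and Vcam1). The other 4 WT stress libraries changed places: replicate 6 was highest for Lcn2, Lrg1 and Icam1, replicate 4 for Vwf, and replicate 5 for Selp, Sele and Vcam1. For Lcn2 replicates 3 and 4 were the lowest.

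**Figure D2:**
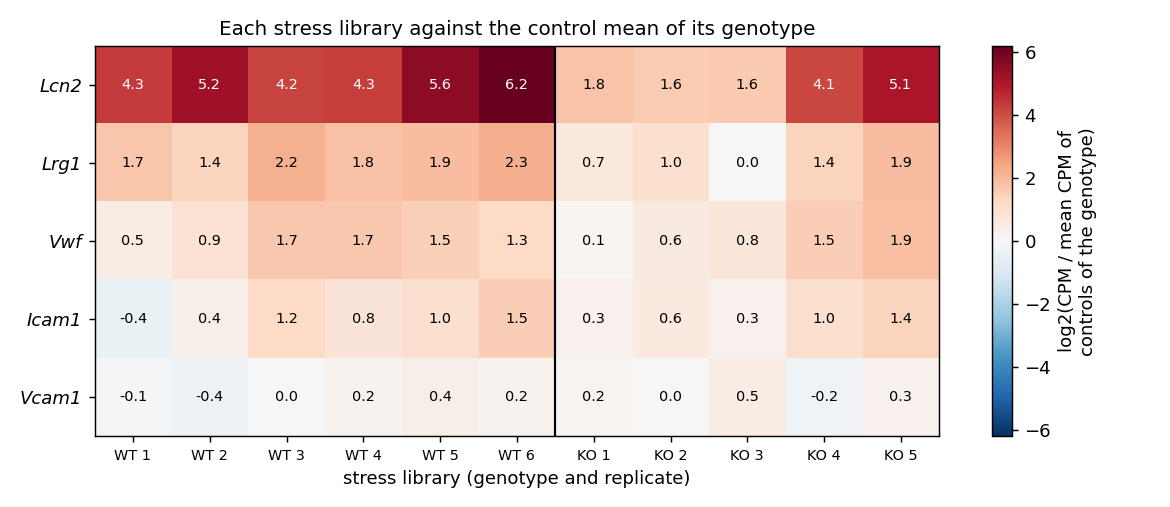
Heat map of log2 of the ratio of CPM in each stress library to the control mean of the same genotype, with WT libraries left and KO libraries right of the line. Lcn2 is above the control mean by 18.3 to 73.7 times in WT and 2.95 to 33.2 times in KO libraries, while Vcam1 lies between 0.779 and 1.37 times.

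The tests used the quasi-likelihood test of edgeR over all 16313 tested genes with Benjamini-Hochberg adjustment. In WT mice 3 of the 6 tested members, Lcn2, Lrg1 and Vwf, were among the genes higher with stress, which were 0.135% of all genes tested. Since that contrast chose the members, nothing is read from this count. For 2 of the 7 members, Lcn2 and Lrg1, every WT stress library lay above every WT control, as for 0.221% of the tested genes. The call of Vwf ended without any 1 of WT control replicates 1, 4 and 5 and WT stress replicates 3, 4 and 5 (log2 fold change 1.21 to 1.28 in these fits), and that of Lcn2 with limma voom (log2 fold change 5.70).

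The KO stress contrast shares no library with the WT stress contrast, but the genes were chosen with all 4 groups in view, so it is not independent of the choice either. None of the 6 tested members passed there, where 0.00613% of all genes were called higher (1 gene, Alas2, the erythroid heme enzyme). By the same edgeR test the values were 3.60 ± 0.76 (SE) for Lcn2 (adjusted p = 0.331), 1.12 ± 0.28 for Lrg1 (0.890), 1.12 ± 0.26 for Vwf (0.5775), 1.60 ± 1.002 for Selp (0.988), 0.76 ± 0.27 for Icam1 (0.988) and 0.16 ± 0.13 for Vcam1 (0.988). In this contrast 648 of the 16313 genes tested had an unadjusted p under 0.05 in edgeR's test. Lcn2, Vwf, Lrg1 and Icam1 were among them, from which nothing is read, since the choice of members had these libraries in view.

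DESeq2's Wald test called Lcn2 (log2 fold change 3.58, adjusted p = 0.0223) and Vwf (1.11, adjusted p = 0.0107) in KO mice. Over the other settings tried with all 6 KO control and 5 KO stress libraries, the edgeR and limma voom tests called no member. Without KO stress replicate 5, one of the 3 libraries highest in Tcf7l2, the log2 fold change was 2.76 for Lcn2, 0.83 for Lrg1 and 0.85 for Vwf. All 5 KO stress libraries lay above all 6 KO controls for 1 of the 7 members, Lcn2, and for 0.233% of the tested genes.

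The genotypes were then compared directly. In controls, KO minus WT was 0.58 ± 0.82 (SE) for Lcn2, −0.11 ± 0.26 for Lrg1, 0.02 ± 0.24 for Vwf, −0.01 ± 1.02 for Selp, −0.23 ± 0.26 for Icam1 and −0.0042 ± 0.12 for Vcam1 on the log2 scale. By edgeR's test the adjusted p was 1.0 for each, and 0% of all genes were called (493 at an unadjusted p under 0.05, and 8 genes by DESeq2). The control levels thus differed by less than their spread, and for Lcn2 and Selp the errors are wide.

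Under stress the KO libraries had lower values for 5 of the 6 members, while 49.1% of all genes tested lay above 0 in this comparison. The members were chosen with the WT stress libraries, so nothing is read from this count. The largest difference relative to its error was that of Lrg1, with a mean of 5.71 ± 2.74 CPM in KO stress (SD, n = 5) against 10.7 ± 2.37 CPM in WT stress (n = 6). By edgeR's test its log2 difference was −0.91 ± 0.28 (SE), with an adjusted p of 0.798. Lcn2 had −0.97 ± 0.66, Selp −1.33 ± 0.85, Icam1 −0.34 ± 0.27, Vwf −0.16 ± 0.26 and Vcam1 0.07 ± 0.13 (adjusted p = 0.798, 0.798, 0.798, 0.883 and 0.900 by the same test). None passed, and 0% of all genes were called (768 at an unadjusted p under 0.05 in edgeR's test and 3 genes by DESeq2).

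The interaction, taken as the stress effect in KO mice less that in WT mice, asks whether stress moved a gene by unequal amounts in the 2 genotypes. It was −0.79 ± 0.38 (SE, log2) for Lrg1, −1.55 ± 1.06 for Lcn2, −1.32 ± 1.39 for Selp, −0.18 ± 0.35 for Vwf, −0.10 ± 0.37 for Icam1 and 0.07 ± 0.18 for Vcam1, each with an adjusted p of 1.0 by edgeR. 0% of all genes were called (384 at an unadjusted p under 0.05, 4 genes by DESeq2). The interaction and the comparison under stress both use the WT stress libraries with which the members were chosen, so they are not independent of that choice. A difference between the genotypes in the stress effect on these genes was not shown, and the errors of Lcn2 and Selp are wide.

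**Figure D3:**
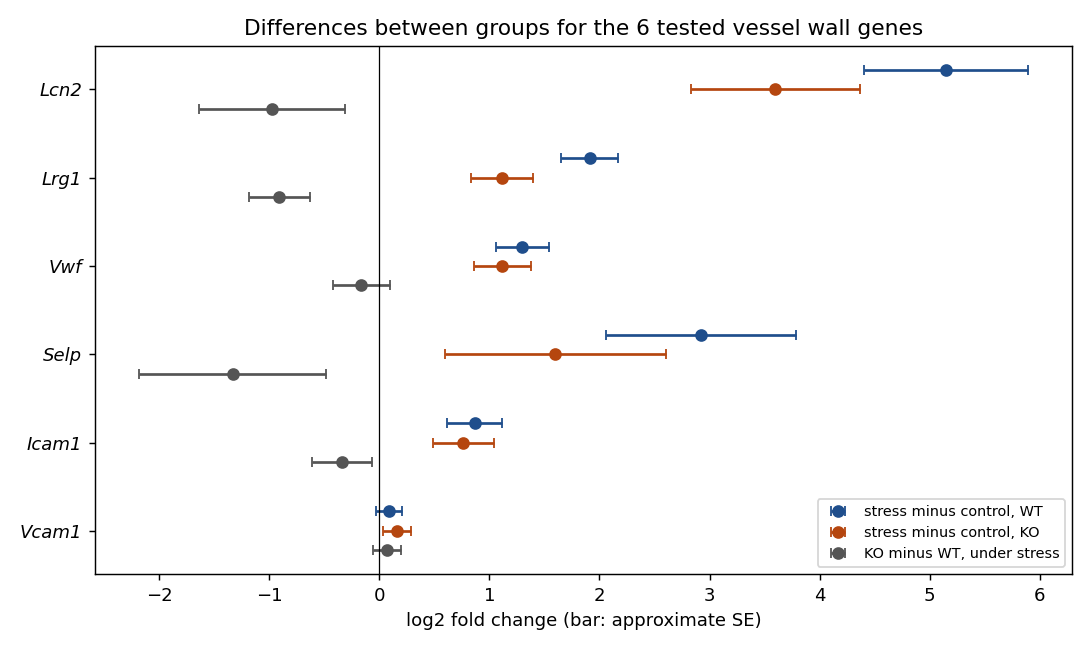
Log2 fold changes with approximate SE for the 6 tested genes, for stress minus control in WT (blue) and in KO mice (orange) and for KO minus WT under stress (grey). Stress differences lie above 0 for all 6 genes in both genotypes, from 0.09 for Vcam1 to 5.15 for Lcn2 in WT mice. Of all genes tested, 49.5% lie above 0 in WT and 51.4% in KO mice. The members were chosen with these groups in view, so nothing is read from their direction. The KO minus WT values under stress lie between −1.33 and 0.07.

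The library sets touched these genes unequally. With the 4 groups in the model, set 2 was higher than set 1 for Icam1 (log2 difference 0.57 ± 0.16, SE, adjusted p = 0.0149 in edgeR's test), Vwf (0.52 ± 0.15, adjusted p = 0.0181) and Selp (1.90 ± 0.67, adjusted p = 0.0441). This is 3 of 6 members, in a comparison that called 11.2% of all genes higher, 9.56% lower and 20.8% in either direction. The 5 stress libraries through which Selp passed the filter were all of set 2. For Selp a difference between the sets was thus built into being tested, and nothing is read from its call. Lcn2 (0.77 ± 0.57), Lrg1 (−0.11 ± 0.20) and Vcam1 (0.08 ± 0.09) did not pass. With 1 library left out Selp was tested in 21 of 24 fits and passed in 9 (adjusted p up to 0.0992 by edgeR), while Icam1 and Vwf passed in all 24. With the replicate number as a block, which overlaps with the set, no call was left: the log2 difference was 0.15 for Icam1, 0.15 for Vwf and −1.52 for Selp. With Alas2 as a covariate Vwf (0.39, adjusted p = 0.0586 by edgeR) and Selp (1.29) did not pass.

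Stress values differed within the sets as well. For Vwf the WT control mean was 23.7 CPM and the WT stress mean 37.5 CPM in set 1 (3 and 2 libraries), and 23.1 and 67.6 CPM in set 2 (4 and 4 libraries). In KO mice they were 21.4 and 30.5 CPM in set 1 (4 and 2 libraries) and 28.4 and 65.5 CPM in set 2 (2 and 3 libraries). The WT controls of the 2 sets were close, while the KO controls of set 1 (19.4 to 26.9 CPM) lay below those of set 2 (28.1 to 28.7 CPM). In both genotypes the stress libraries of set 2 stood above those of set 1.

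Icam1 had 2.40 and 3.05 CPM in set 1 and 3.43 and 6.63 CPM in set 2 for WT control and stress, so that its WT control mean was also higher in set 2. Lrg1 went from 3.89 to 8.34 CPM in set 1 and from 2.06 to 11.9 CPM in set 2. Its WT controls were higher in set 1 (3.57 to 4.23 CPM) than in set 2 (1.57 to 2.96 CPM). Its WT stress libraries were lower in set 1 (7.38 to 9.30 against 10.1 to 13.7 CPM), and in KO mice the sets overlapped. The set term takes 1 difference over all 4 groups, so for Lrg1 it averages opposite differences. For Lcn2 the WT log2 fold change was alike in set 1 (5.36) and set 2 (4.99). In KO mice it was 1.34 ± 0.73 (SE) in set 1 and 5.14 ± 1.34 in set 2, where the 2 controls held 6 reads each. KO stress replicate 3, of set 2, stood at 1.28 CPM, beside 1.39 and 1.21 CPM in replicates 1 and 2 of set 1. Whether the stress effect itself differs between the sets was not tested. With the library set as a term in the fit, the WT values were 5.12 for Lcn2, 1.95 for Lrg1 and 1.19 for Vwf, and the KO values 3.15, 1.16 and 0.93.

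Blood cell transcripts were also higher in stress libraries. Of 17 listed neutrophil genes 16 were in the table, and their summed level was 9.52 to 11.96 CPM in WT control, 12.05 to 42.6 CPM in WT stress, 8.95 to 12.4 CPM in KO control and 9.97 to 30.75 CPM in KO stress. Of the 16, 9 had enough reads to be tested; several are near 0 in controls, so being tested rested on the stress libraries, and no median is read from them. In WT mice 3 passed, S100a8 and S100a9, which encode the calprotectin subunits, and Retnlg (log2 fold change 5.12, 4.31 and 4.88). In KO mice 0 passed. Of all genes tested, 0.135% were called higher with stress in WT and 0.00613% in KO mice. The granule gene Camp had 12 reads in WT controls and 48 in WT stress, and Stfa2 was at 0 in every group but WT stress. Because whole tissue was sequenced, more cells of a type and more RNA per cell cannot be told apart.

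Single libraries did not always follow the neutrophil genes. In WT stress replicate 1 the neutrophil sum was 12.05 CPM, next to the highest WT control at 11.96 CPM, and the granule genes Camp and Ngp had 0 and 2 reads, while S100a8 had 0.906 CPM and S100a9 0.627 CPM, above the highest WT controls at 0.221 and 0.515 CPM. Csf3r, which had 7.001 CPM or more in every WT stress library and 5.475 CPM or more in every WT control, makes up much of the sum at such levels. Lcn2 in this library stood at 5.40 and Lrg1 at 9.30 CPM, above every WT control. The part of neutrophils in these levels was not tested. In WT stress replicate 4 the neutrophil sum was 42.2 CPM and Ngp 3.70 CPM, and Lcn2 stood no higher, at 5.22 CPM. Vwf, in contrast, was 32.0 CPM in replicate 1 and 74.7 CPM in replicate 4. WT stress replicate 5, which had the highest neutrophil sum (42.6 CPM), had Lcn2 at 12.7 CPM, below only replicate 6. In KO mice S100a9 had 5.34 and 5.26 CPM in stress replicates 4 and 5 and at most 0.940 CPM in the other 3, and Lcn2, Vwf and Icam1 were highest in those same 2 libraries.

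**Figure D4:**
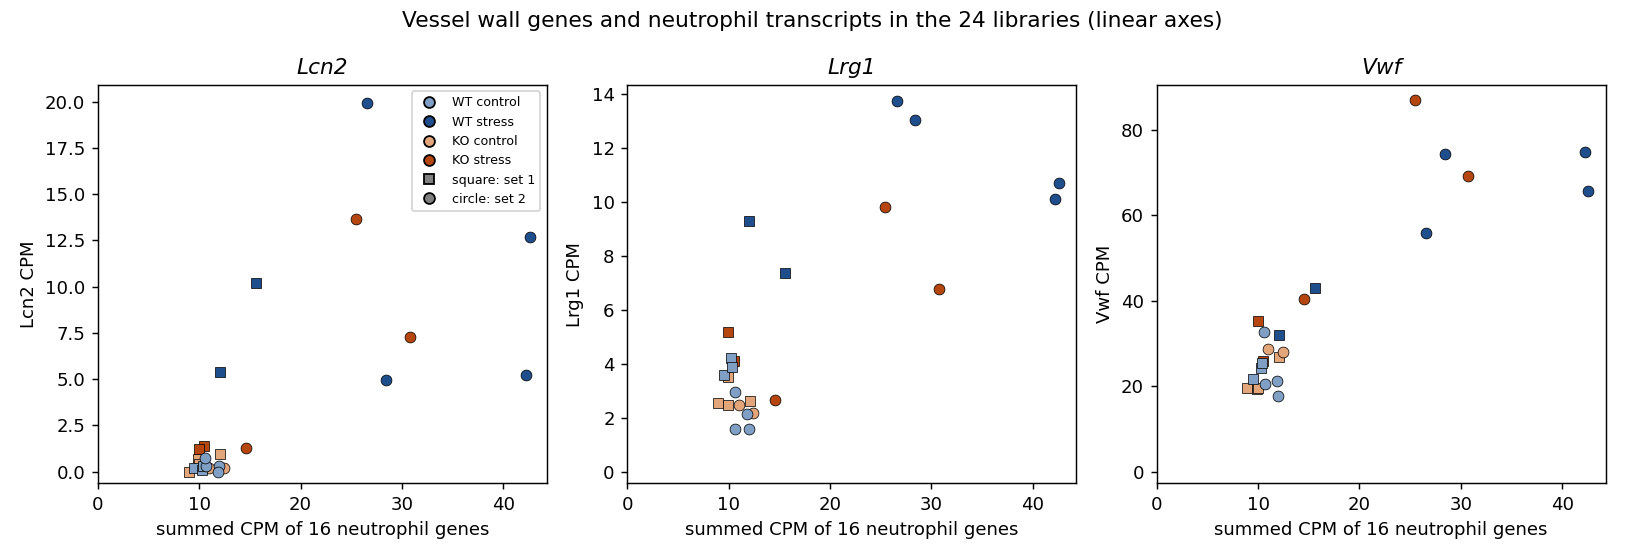
Level of Lcn2, Lrg1 and Vwf (CPM, vertical) against the summed CPM of 16 neutrophil genes (horizontal) in the 24 libraries, colored by group, with squares for set 1 and circles for set 2; axes are linear. The 2 WT stress libraries of set 1 (squares) have Lcn2 at 5.40 and 10.2 CPM at neutrophil sums of 12.05 and 15.6 CPM, while Vwf and the neutrophil sum are high in the same libraries.

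No platelet gene passed. Of the 12 listed, 9 were tested and 0 passed in either genotype, with medians of 0.04 in WT and −0.05 in KO mice. The summed level of the 12 was 25.25 to 38.0 CPM in WT stress against 26.2 to 34.45 CPM in WT control. Most of this sum was Gp1bb, with means of 20.25 CPM in WT control and 20.85 CPM in WT stress. The median sums were 28.45 and 30.36 CPM, so the sum says little of the scarcer genes. The chemokine gene Pf4, listed here both for platelets and for perivascular macrophages, had a log2 fold change of 0.50 ± 0.37 in WT and −0.32 ± 0.42 in KO mice. Ppbp had 4 reads in WT controls and 84 in WT stress (a log2 difference of 4.24 ± 1.05 that did not pass, edgeR's adjusted p being 0.161). No control library of either genotype held more than 6 reads of Ppbp, under the minimum count of 10. Its being tested thus rested on the stress libraries, and the medians above include it. Gp6 was at 0 in every group but WT stress. The part of platelets in the levels of Vwf and Selp was not tested.

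Red blood cell genes stood higher with stress in both genotypes. Their summed level, over 8 genes, was 69.9 to 86.6 CPM in WT control and 105 to 150 CPM in WT stress, and 69.4 to 90.6 and 96.1 to 134 CPM in KO control and stress. Of the 6 tested, 2 passed in WT (Alas2 and Hba-a2, an alpha-globin gene) and 1 in KO mice (Alas2). This stands beside 0.135% and 0.00613% of all genes tested that were called higher. Hbb-bt was at 0 throughout. With the level of Alas2 as a covariate, which itself differs with stress, the WT log2 fold change was 1.30 for Lcn2, 0.98 for Lrg1 and 0.0187 for Vwf, and no member passed. The KO values in that fit were 0.33, 0.36 and 0.09. The part of red blood cells in these results was not tested beyond this fit.

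Markers of the endothelium itself lay slightly above 0. Of 23 identity markers 1 passed in WT mice, Ly6a (25.4 ± 3.70 CPM in control and 48.6 ± 6.77 CPM in stress, SD; one of a family of near-identical genes, so its counts are uncertain), and 0 in KO mice. All 23 lay above 0 in WT (median log2 fold change 0.21) and 21 in KO mice (median 0.17). Of all genes tested, 49.5% lay above 0 in WT and 51.4% in KO mice, and 0.135% and 0.00613% were called higher. The summed level of the 23 markers was 577 to 733 CPM in WT control and 732 to 819 CPM in WT stress. In KO mice it was 611 to 743 CPM in control and 673 to 855 CPM in stress. The adhesion gene Pecam1 had 0.17 ± 0.10 and 0.11 ± 0.11 and the tight junction gene Cldn5 0.25 ± 0.14 and 0.06 ± 0.15 (SE) in WT and KO mice. Among subtypes of vessel, 7 of 7 venous, 9 of 11 arterial and 5 of 8 capillary genes lay above 0 in WT mice (medians 0.30, 0.06 and 0.06), and 5, 8 and 7 in KO mice (medians 0.39, 0.13 and 0.05), and 0 of each list passed in either genotype.

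The pathways around the members held no gene that passed. Of 34 genes of NF-kB driven vessel inflammation 25 were tested and 0 passed in either genotype, with 17 above 0 in WT (median 0.11) and 20 in KO mice (median 0.18). Nfkbia, the inhibitor that NF-kB induces, had 0.25 ± 0.14 in WT and 0.26 ± 0.15 in KO mice. Ch25h, the cholesterol 25-hydroxylase gene, named after its values were seen, had 2.13 ± 0.48 in WT (0.615 ± 0.185 CPM in control and 2.71 ± 1.53 CPM in stress, SD; adjusted p = 0.0900 by edgeR) and 1.197 ± 0.52 in KO mice, a WT value above those of Lrg1 and Vwf. Of 27 STAT3 acute-phase genes 18 were tested and 0 passed (medians 0.15 and 0.27). The feedback inhibitor Socs3 had 0.42 ± 0.18 and 0.04 ± 0.20, and the shared receptor chain Il6st −0.03 ± 0.16 and 0.23 ± 0.17. Bcl3, a cofactor of NF-kB dimers, also named after its values were seen, had 1.52 ± 0.43 in WT and 1.14 ± 0.47 in KO mice (SE). In WT and KO mice, 49.5% and 51.4% of all genes tested lay above 0.

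Among direct partners of the members, 1 gene passed, where 0.135% of all genes tested were called higher with stress in WT mice. Of the Weibel-Palade body list, 15 genes, 1 passed in WT mice, Igfbp7 (33.7 ± 5.02 to 49.3 ± 6.90 CPM, SD), and 0 in KO mice, with medians of 0.06 in each. The granule cargo Angpt2 had a log2 fold change of 0.13 ± 0.25 in WT and 0.73 ± 0.27 in KO mice, and Plat, tissue plasminogen activator, −0.19 ± 0.11 and 0.0099 ± 0.12. Of 16 tested partners of Lcn2 and Lrg1 0 passed (medians 0.14 and 0.21). The Lcn2 receptor genes Slc22a17 and Lrp2 had −0.04 ± 0.08 and −0.44 ± 0.42 in WT mice and −0.02 ± 0.08 and 0.26 ± 0.43 in KO mice. The TGF-beta receptor genes Eng and Tgfbr2 had 0.46 ± 0.11 and 0.24 ± 0.14 in WT and 0.30 ± 0.12 and 0.42 ± 0.15 in KO mice (SE).

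On the leukocyte side, 0 of 17 ligand genes passed in either genotype (medians 0.12 in WT and 0.27 in KO mice). Selplg, the ligand of P-selectin, had −0.06 ± 0.11 and 0.03 ± 0.12, Itga4, part of the Vcam1 ligand, −0.04 ± 0.20 and −0.14 ± 0.22, and Itgal, part of an Icam1 ligand, 0.997 ± 0.28 and −0.0048 ± 0.30 in WT and KO mice.

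Other tissue was checked in the same way, beside 49.5% and 51.4% of all genes tested that lay above 0 in WT and KO mice. Choroid plexus markers were uneven (summed level 171 to 3153 CPM in unstressed WT, 107 to 2723 in stressed WT, 146 to 2492 in unstressed KO and 1113 to 2681 in stressed KO libraries), and 0 of 12 lay above 0 with stress in WT but 12 of 12 in KO mice, with 0 passing. Of 11 meningeal fibroblast genes 0 passed (medians 0.13 and 0.26), of 14 pericyte and smooth muscle genes 0 (medians 0.19 and 0.13), of 14 microglia genes 0 (medians 0.27 and 0.10), of 8 perivascular macrophage genes 0 (medians 0.17 and 0.05) and of 12 reactive astrocyte genes 0 (medians 0.18 and 0.16). Of 14 tested thalamus and habenula markers 0 passed (medians 0.20 and 0.51) and of 12 hippocampal neuron genes 0 (medians −0.05 and −0.03). Their part in the results was not tested.

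Genes with a similar course over the 24 libraries were ranked by Pearson r of log2 CPM among 14271 genes with a mean of at least 1 CPM, as a description, since the libraries share groups, sets and composition. For Lcn2 they were Alas2 (r = 0.90), Grrp1 (0.87), Slc4a1 (0.85), Igfbp7 (0.85) and Tmem252 (0.85). For Lrg1 they were Tgm2 (0.90), Tmem252 (0.90), Ctla2a (0.88), Ifitm1 (0.87) and Ly6a (0.86). The genes nearest to Vwf were S100a9 (0.93), S100a8 (0.92), Lyz2 (0.90), Igfbp7 (0.88) and Alas2 (0.87). Lcn2 and Vwf thus shared Alas2 and Igfbp7 among their nearest 5, and Lcn2 and Lrg1 shared Tmem252.

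After subtraction of each group's mean, which leaves only the variation among libraries of one group, the nearest genes changed. For Lcn2 they were Unc45b (0.72), Zkscan4 (0.71), the oncostatin M receptor gene Osmr (0.68), Rasip1 (0.63) and Plcg2 (0.63). Lrg1 had Tgm2 (0.86), 8430408G22Rik (0.84), Acer2 (0.75), Glul (0.75) and Rin3 (0.73). Vwf had S100a9 (0.89), the fibronectin gene Fn1 (0.86), Ephb4 (0.85), Ehd2 (0.84) and S100a8 (0.83). Tgm2, which encodes transglutaminase 2, stayed first for Lrg1 and S100a9 first for Vwf, while the 5 nearest of Lcn2 were all replaced.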

How the data were processed

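The table used holds read counts, whole numbers that the authors deposited for each gene symbol without scaling. STAR, DESeq2 and mm10 are named in the submitters' processing notes, with no roles; the sources used here do not name a read counter, an annotation or a strand setting. Per library, 70.9% to 75.8% of counts from 1 to 10 were even, so mates appear to have been counted separately. The authors' normalized counts and their table of 1 comparison, whose groups are not named, were not used.

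Groups and replicate numbers came from the sample titles. Of 24062 genes, 16313 passed the edgeR filter (minimum count 10). The quasi-likelihood test of edgeR 4.0.16 (R 4.3.3, TMM, robust) was fitted to 4 group means over all 24 libraries (20 residual degrees of freedom), with Benjamini-Hochberg adjustment over all tested genes and a threshold of 0.05. SE is approximate (log2 fold change over the root of F). CPM uses TMM-scaled library sizes. Log2 CPM for likeness used a prior count of 2. Lists are described by counts and medians, with no set test. Coordinates and exon lengths are from GENCODE M21 (mm10).

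The members and gene lists were chosen with earlier results of these data known. Named genes were the members, partners chosen by role, listed genes that passed (for the library sets only the members) and the 5 nearest genes of Lcn2, Lrg1 and Vwf. Alternatives were RLE factors, DESeq2 1.42.0, limma 3.58.1 voom, both filters, 2 groups only, the replicate block, library sets, leaving out libraries and an Alas2 covariate.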

Additional observations from a re-analysis of the deposited data

Results flagged for a closer look

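Of 28 sets of values (7 genes in 4 groups), 4 held a library far from the others of its group by Dixon's criterion at 95%, which chance gives in about 1 in 20. Lcn2 stood at 0.754 CPM in WT control replicate 6, against at most 0.295 CPM in the other WT controls. This library also had the highest Vwf (32.8 CPM) and Selp (0.241 CPM) of its group. Lrg1 stood at 3.51 CPM in KO control replicate 1, with the other KO controls at most at 2.62 CPM. Sele stood at 0.0780 CPM in KO control replicate 1 and at 0.0736 CPM in WT control replicate 3, each of which is 2 reads where the rest of the group had 0.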

How the results depend on the processing

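Over 1233 values of the 6 tested members under the alternatives, 1147 kept direction and side of the threshold, 32 lost a call, 2 gained one (Lcn2 and Vwf in KO mice by DESeq2) and 52 changed sign, none of these called (adjusted p at least 0.612 in each tool's own test). The WT stress comparison called 22 genes, 15 to 27 with 1 library left out, 61 by DESeq2, 0 in set 1 alone and 0 with Alas2 as a covariate. Of the members it called 3, 2 to 3 with 1 left out, and 0 in set 1 alone and with Alas2. The KO stress comparison called 1 gene, 0 to 2 with 1 left out, 12 by DESeq2, and 0 without a filter, with only the groups compared, with the set as a term, in set 1 or set 2 alone, without the 3 libraries highest in Tcf7l2 (the thalamic libraries) and with Alas2. Of the members it called 0 in the main test and 2 by DESeq2. DESeq2 called 4 genes for the interaction, 8 between the genotypes in controls and 3 under stress, where edgeR called 0. The comparison of sets called 3385 genes, 5165 without the thalamic libraries and 34 with the replicate block, and of the members 3, with 0 under the block and 1 with Alas2. Fewer samples in set 1, the overlap of set and replicate number, and that of Alas2 with stress bear on these counts by construction. Elsewhere the cause was not tested.

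The replicate block changed no call of a member in the stress and genotype comparisons (Lcn2 4.997, Lrg1 1.85 and Vwf 1.22 in WT mice; Lcn2 3.34 in KO mice). Whether the numbers pair the samples was not settled, since correlations cannot exclude it. Same-numbered WT stress and control libraries correlated at −0.28 to 0.49 in their deviations (4 of 6 over 0.1). KO ones correlated at −0.24 to 0.22 (1 of 5 over 0.1), and 1 of 6 and 0 of 5 correlated best with their own number. Between KO and WT, 4 of 6 control and 4 of 5 stress pairs were over 0.1, and 0 and 2 correlated best with their own number. In WT stress, signs changed for Vcam1 in set 1 (−0.25), and with Alas2 for Icam1 (−0.27) and Selp (−2.06). In KO stress they changed with Alas2 for Icam1 (−0.105) and Selp (−2.09). For the interaction they changed for Icam1 in set 1 (0.12) and with Alas2 (0.16), Lcn2 in set 2 (0.15), Vcam1 without the thalamic libraries (−0.0109) and Vwf with Alas2 (0.0717); with 1 library left out Icam1 ran from −0.32 to 0.0697 and Vcam1 from −0.0078 to 0.15. For KO against WT in controls they changed for Icam1 in set 1 (0.0442), Lcn2 (−0.68) and Lrg1 (0.17) in set 2, Lrg1 with voom (0.11), Selp (0.54) and Vcam1 (0.0149) with the set as a term, and Vwf with the replicate block (−0.0397), in set 1 (−0.15) and with Alas2 (−0.0929). With 1 left out, Lrg1 ran from −0.22 to 0.0119, Selp from −0.67 to 0.75, Vcam1 from −0.0738 to 0.0342 and Vwf from −0.0385 to 0.12. Under stress they changed for Icam1 in set 1 (0.16) and Vcam1 in set 2 (−0.0187) and without the thalamic libraries (−0.0137); with 1 left out Vcam1 ran from −0.0121 to 0.15 and Vwf from −0.43 to 0.0063. Between sets they changed for Lcn2 (−0.89) and Selp (−1.52) with the replicate block, Lrg1 with voom (0.13) and Vcam1 without the thalamic libraries (−4e-04). Selp was too low to test in set 1 alone, under the stricter filter and, but for KO against WT under stress, with only the groups compared. Depth limits Sele and Selp, whose levels lie near 3 reads.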
